A study of Mus musculus with 8 samples.

Results

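In mouse embryonic stem cells (ESCs) given DMSO, 2832 m6A peaks of 100 nt or more shared no base with any peak of the same cells given doxycycline (Dox). These DMSO-only peaks were chosen by their overlap with the Dox peak list, which had to be 0 bases of the exon blocks on the same strand, and by their length, which is the sum of their exon blocks. They made up 23.3% of the 12155 DMSO peaks of that length (95% interval 22.6 to 24.1), against 43.0% of the 18895 DMSO peaks of any length. In the other direction, 213 of 8345 Dox peaks of 100 nt or more, or 2.55%, shared no base with a DMSO peak. These counts are what the rule selected, and they describe a DMSO list of 18895 peaks beside a Dox list of 13001 peaks.

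Both treatments were given for 24 h to ESCs of the E14 line that carry a Dux transgene switched on by Dox and a tdTomato reporter driven by the Mervl promoter. DUX switches on genes of zygotic genome activation and can turn ESCs 2C-like, which means similar to cells of the 2-cell embryo, and DMSO served as the control treatment. Poly(A) RNA was fragmented and pulled down with an anti-m6A antibody (MeRIP-seq), with 2 IP and 2 input libraries per treatment and 8 libraries in all, but the authors combined the replicates into a single peak list for each treatment. There is thus no replicate spread, no test between treatments was made, and every interval is a 95% interval of counting error over peaks, which are not independent replicates. Read depth and input levels were not analysed here, so that less methylation at a site, less RNA of that gene and thinner coverage cannot be told apart. All 9 ESC marker genes examined, Nanog, Pou5f1 and Sox2 among them, carried a peak in both lists. None of 2 trophectoderm, 3 primitive endoderm and 3 fibroblast markers carried a peak in either list. None of the 9 ESC markers carried a DMSO-only peak of 100 nt or more. Among all 5158 genes with a DMSO peak of that length, 2040 (39.6%) did, as did 6 of 24 genes on a wider pluripotency list.

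m6A is placed on nuclear RNA by the METTL3-METTL14 methyltransferase within a larger complex that includes WTAP, VIRMA and ZC3H13. It sits at adenosines in a short motif whose core is GGAC, within the looser motif DRACH, and it is concentrated in long internal exons and around the stop codon. The reader YTHDF2 binds m6A-bearing mRNA in the cytoplasm and recruits the CCR4-NOT deadenylase through CNOT1, which shortens the life of these transcripts.

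The sequences of a few of these peaks show what was pulled down. The 6 below were the best-scoring DMSO-only peaks of a single exon block that lay wholly in coding sequence, measured 100 to 200 nt and held GGAC, with 1 peak per gene. They are written on the RNA strand, 5′ to 3′, from the GRCm38 (mm10) genome, with GGAC in capitals. Trim28 encodes the corepressor that silences retrotransposons, and its peak lay at chr7:13025677-13025776 on the plus strand. Utp20 encodes a component of the small-subunit processome of ribosome assembly (chr10:88795384-88795508, minus strand). Itgb1 encodes the integrin beta 1 chain (chr8:128722399-128722548, plus strand). Drap1 encodes a subunit of the transcriptional repressor NC2 (chr19:5423560-5423659, minus strand). Sptbn1 encodes a beta spectrin of the membrane skeleton (chr11:30142127-30142251, minus strand). Bnc2 encodes a zinc finger protein (chr4:84293390-84293539, minus strand).
Trim28: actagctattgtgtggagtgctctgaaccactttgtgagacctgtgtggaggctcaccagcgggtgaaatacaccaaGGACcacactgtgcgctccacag
Utp20: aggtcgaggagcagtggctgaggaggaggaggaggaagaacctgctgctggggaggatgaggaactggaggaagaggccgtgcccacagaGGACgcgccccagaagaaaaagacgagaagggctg
Itgb1: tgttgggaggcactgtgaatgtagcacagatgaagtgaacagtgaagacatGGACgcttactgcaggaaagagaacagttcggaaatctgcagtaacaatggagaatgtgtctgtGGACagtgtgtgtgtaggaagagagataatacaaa
Drap1: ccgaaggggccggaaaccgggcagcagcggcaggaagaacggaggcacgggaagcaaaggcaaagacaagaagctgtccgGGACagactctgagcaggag
Sptbn1: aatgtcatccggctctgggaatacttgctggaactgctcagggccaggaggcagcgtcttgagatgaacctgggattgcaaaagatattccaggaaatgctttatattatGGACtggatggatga
Bnc2: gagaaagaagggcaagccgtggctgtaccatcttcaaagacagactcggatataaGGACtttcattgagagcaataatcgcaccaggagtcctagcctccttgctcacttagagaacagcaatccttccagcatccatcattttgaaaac

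For peaks in the 3′ UTR, windows of 30 bases around the first GGAC are shown for 2 high-scoring ones that held the motif. In Tet2, which encodes a 5-methylcytosine dioxygenase (chr3:133464561-133464590, minus strand), the printed GGAC lay 2162 nt past the stop codon, and the window held the motif at a second place. In Sbk1, which encodes a protein kinase (chr7:126293008-126293037, plus strand), it lay 374 nt past it.
Tet2: gatctagtgacgaGGACagctttGGACtgc
Sbk1: agaaactggcaaaGGACaggcactgggttg

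Along mRNA, the DMSO-only peaks lay more in the body of the coding sequence and less at the stop codon than the 9323 DMSO peaks of 100 nt or more that did share bases with a Dox peak (shared peaks). Of 2679 DMSO-only peaks on a coding transcript, 1977 had their middle base in coding sequence (73.8%), 632 in the 3′ UTR (23.6%) and 70 in the 5′ UTR (2.61%). The middle base lay within 200 nt of the stop codon in 492 of them (18.4%, 16.9 to 19.9) and in 2444 of 8969 shared peaks (27.2%, 26.3 to 28.2). The difference was -8.88 percentage points (95% interval -10.6 to -7.12). Shared peaks weighted to the length classes of the DMSO-only peaks gave a difference of -7.69 (-9.74 to -5.64), and weighting by length class and score together gave -8.36 (-10.6 to -6.10).

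The stop codon was nonetheless occupied more often than the length of the transcripts alone gives. Sliding each DMSO-only peak through every position of its own transcript placed 10.9% of all positions within 200 nt of the stop codon, while 18.3% of 2677 peaks lay there. For shared peaks the same figures were 12.9% and 27.3%. Just before the stop codon, the bin of 200 nt held 9.53% of the DMSO-only peaks against 5.87% of positions, and the bin after it held 8.78% against 5.00%. Further into the 3′ UTR the DMSO-only peaks were sparser than positions, with 0.672% of peaks against 2.12% of positions at 1000 to 1200 nt past the stop codon.

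**Figure D1:**
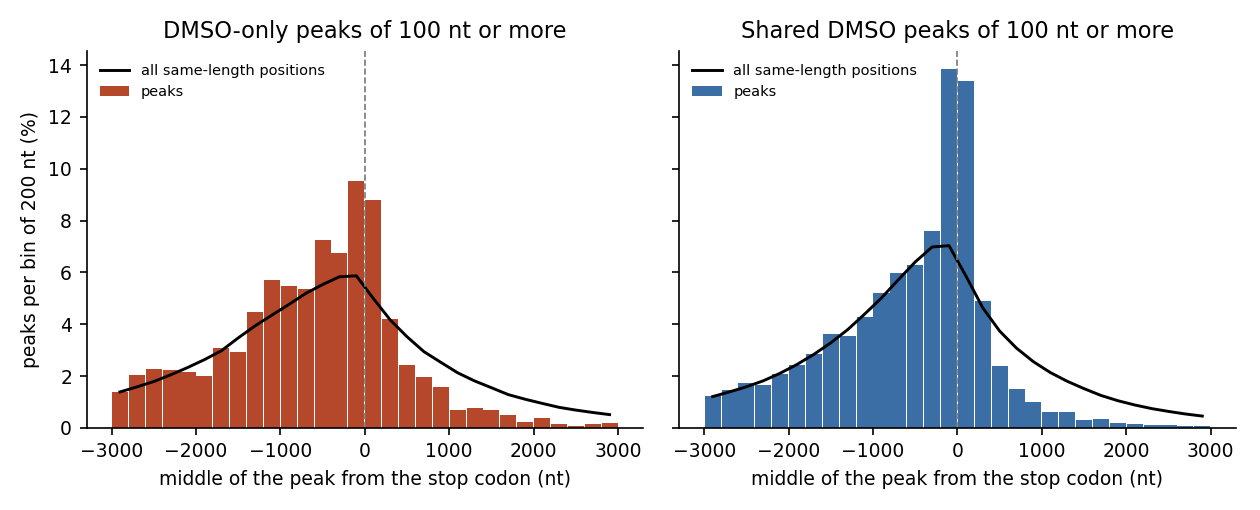
Position of the middle base of each peak relative to the stop codon, in bins of 200 nt, as a percent of all peaks of that class (bars). The line gives the percent for every same-length position in the same transcripts. The DMSO-only peaks reach 9.53% in the bin before the stop codon, and both classes fall below the line in the distal 3′ UTR.

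Members at the stop codon included Map7, which encodes a microtubule-binding protein, with a peak of 175 nt whose middle lay 81 nt past the stop codon and whose score was 18.3. The score is the authors' value of a peak, read as its -log10 p, and the 2832 DMSO-only peaks had a median of 11.4. Msn (moesin, a linker of actin to the membrane) had a peak with a score of 17.7 centred 131 nt before the stop codon, Atp6v1a (a subunit of the vacuolar proton pump) one of 17.6 with its middle base at the first base of the codon, Atxn2 (an RNA-binding protein) one of 17.6 centred 10 nt past it, and Ptges3 (the HSP90 cochaperone p23) one of 16.4 centred 149 nt before it. In the distal 3′ UTR, the best-scoring peak was in Hjurp, the chaperone of the centromeric histone CENP-A, with a score of 17.4 at 963 nt past the stop codon. In the 5′ UTR they were in Spred2, an inhibitor of RAS-ERK signalling, with a score of 15.6, and in Tle4, a Groucho-type corepressor, with 13.6.

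The DMSO-only peaks lay more often in internal exons. The middle base was in an internal exon in 1474 of 2679 (55.0%, 53.1 to 56.9) and in 45.9% of shared peaks, a difference of 9.14 points that stayed at 6.41 (3.91 to 8.91) at equal length class. Among DMSO-only peaks under 100 nt the share was similar, at 56.3%. The exon that held the middle base of a DMSO-only peak of 100 nt or more had a median length of 748 nt, against 976 nt for shared peaks, without weighting. The means went the other way, at 1760.3 and 1620.5 nt. The share with the middle base within 100 nt of an exon junction had no stable direction. Its difference was 10.8 points unweighted, -3.40 at equal length class and 4.43 at equal length class and score quintile. The Sf3b3 and Dync1h1 peaks were examples in short exons: the exon at the middle of the Sf3b3 peak was 156 nt long and that of Dync1h1 was 184 nt long. At the other end, the best-scoring peak of Setd2, which encodes a histone methyltransferase, lay in an exon of 4286 nt.

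The share of spliced peaks had no stable difference. Of the DMSO-only peaks, 791 spanned at least 1 exon junction (27.9%, 26.3 to 29.6), against 33.9% of shared peaks, a difference of -5.92 points (-7.81 to -3.99). At equal length class the difference was -1.68 (-3.89 to 0.525), and at equal length class and score quintile it turned to 4.18 (1.97 to 6.38). Same-length positions in the transcripts of the DMSO-only peaks crossed a junction in 36.7% of cases, more than the 28.9% of the peaks themselves. The peak of Cbx3, which encodes heterochromatin protein 1 gamma, consisted of 3 blocks over 175 nt with a score of 20.4, and its sequence has a near-identical second locus in the genome.

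GGAC was found in 1553 of 2830 DMSO-only peaks (54.9%, 53.0 to 56.7) and in 75.5% of shared peaks, a difference of -20.6 points (-22.6 to -18.6). Most of this went with length, since shared peaks are longer: at equal length class the difference was -4.01 (-6.42 to -1.61). At equal length class and score quintile it was -6.04 (-8.64 to -3.43). With length in steps of 25 nt and GC quintile together it was -1.81 (-4.22 to 0.592), an interval that includes 0. The reverse complement GTCC, which is not an m6A motif, differed in the same direction at equal length class by -3.51 points (-5.78 to -1.23). Per 1000 nt, the DMSO-only peaks held 5.76 GGAC and the shared peaks 6.17. Only the RNA strand was searched for every motif.

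Both classes held the motif more often than their own transcripts did. Of all windows of the same lengths along the transcripts of the DMSO-only peaks, 42.7% held GGAC, against 55.2% of the 2677 peaks placed on them, whereas GTCC was in 36.8% of windows and in 33.4% of peaks. The 5-base form GGACT was in 13.7% of windows and in 19.5% of peaks. DRACH was in 92.3% of windows and in 96.6% of peaks, so that at these lengths it separated little. It was less frequent in DMSO-only than in shared peaks without length weighting (-1.61 points) and more frequent with it (1.71 points, 0.647 to 2.77).

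Purine-rich words led the list of 5-mers. In 1941 transcripts, 9 of the 10 5-mers with the highest rate in the DMSO-only peaks relative to their whole transcripts consisted of A and G alone, an observation made after the values were seen. AGAGA was 1.70 times and GAAGA 1.68 times as frequent as in the transcripts, AGGAC ranked 8 of 1024 at 1.58 times, GGACT ranked 20 at 1.48 times, and TTTTT was the rarest at 0.203 times. Shared peaks, set against the same transcripts, had like rates of these words, at 1.43, 1.53, 1.57 and 1.55 times and 0.244 times in that order, so that this is no trait of the DMSO-only peaks alone. GAAGA was in 42.6% of the DMSO-only peaks, a difference from shared peaks of -14.4 points (-16.5 to -12.4) without weighting. At equal length class the difference was 2.21 points (-0.136 to 4.55), and in length steps of 25 nt it was 2.72 (0.371 to 5.07). With length class and score quintile it was 4.96 (2.49 to 7.43), and with length steps and GC quintile 0.493 (-1.88 to 2.87). Its direction thus followed length. The Utp20 peak printed above shows such runs of A and G upstream of its GGAC. GC content was 51.3% ± 7.78 (SD, n = 2830 peaks) against 53.1% ± 7.50 (n = 9319), a difference of -1.87 points that was -2.23 at equal length class.

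**Figure D2:**
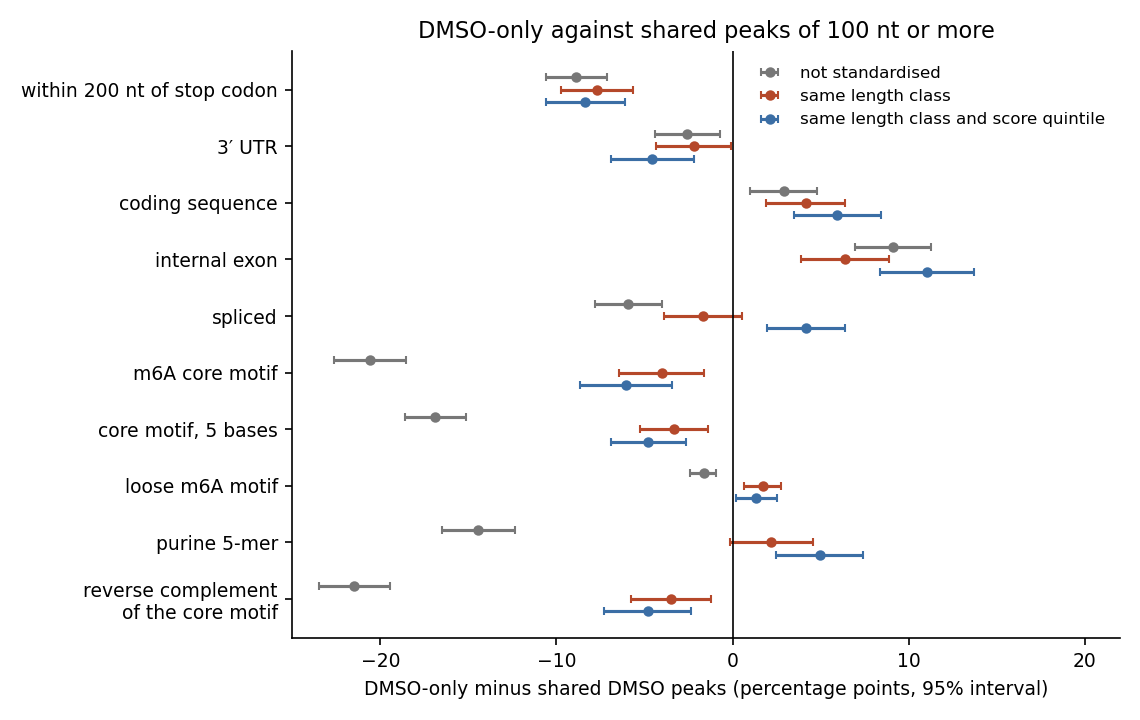
Difference between DMSO-only and shared DMSO peaks of 100 nt or more in the percent of peaks with each property, in percentage points with 95% intervals, without weighting, at equal length class, and at equal length class and score quintile. The motifs are, from top to bottom, GGAC, GGACT, DRACH, GAAGA and GTCC. The stop codon keeps its difference in all 3 settings, at -8.88, -7.69 and -8.36 points. The 3′ UTR, coding sequence, internal exon, GGAC, GGACT and GTCC also keep their direction in all 3, with intervals that exclude 0. The spliced share, DRACH and GAAGA change direction.

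The score and the length of these peaks describe how they were selected and carry no test. Their median length was 125 nt (quartiles 100 and 150, highest 1125), against 225 nt for shared peaks, and 836 of them measured exactly 100 nt. Among DMSO peaks of 100 nt or more, 55.9% of those under 125 nt and 2.19% of those of 300 nt or more (77 of 3524) had no base in a Dox peak. Their scores ran from 10.2 to 26.7 with a median of 11.4 (quartiles 10.9 and 12.1), against a median of 12.3 for shared peaks (quartiles 11.5 and 13.8). In the lowest score quintile 48.1% of the peaks were DMSO-only, and in the highest 7.20%.

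**Figure D3:**
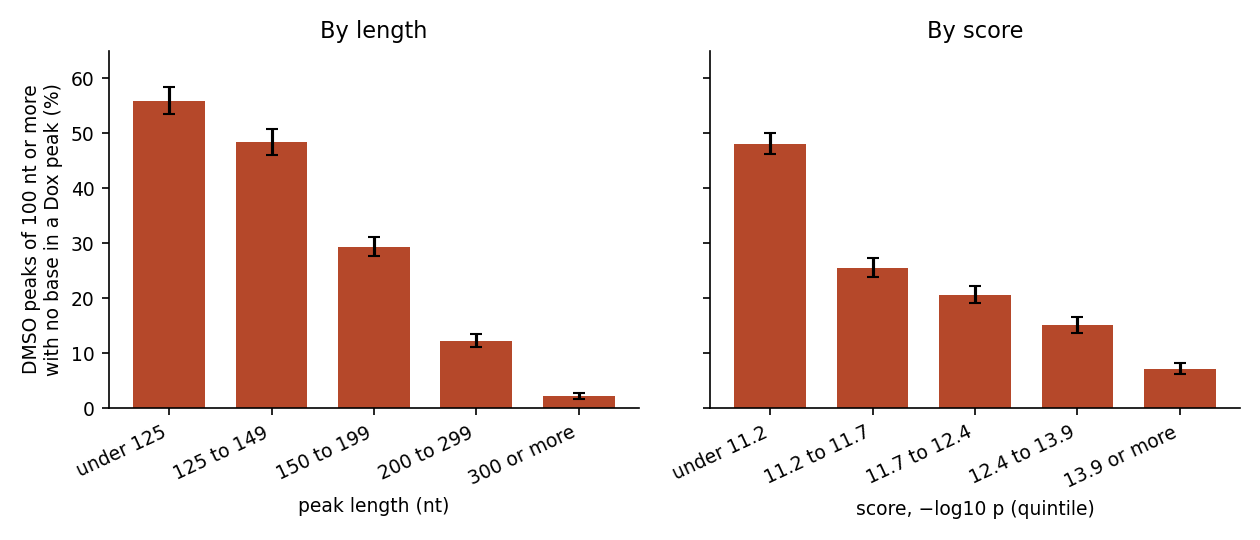
Percent of DMSO peaks of 100 nt or more with no base in a Dox peak, by peak length (left) and by quintile of the score (right), with Wilson 95% intervals. The share falls from 55.9% under 125 nt to 2.19% at 300 nt or more, and from 48.1% in the lowest score quintile to 7.20% in the highest.

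At the threshold of the rule, 1060 further DMSO-only peaks measured 75 nt, with a median score of 11.04 and a highest score of 28.4 in Trip12, which encodes a ubiquitin ligase, followed by Arpp19 (an inhibitor of the phosphatase PP2A, 23.7) and Odf2 (a centriolar appendage protein, 22.9). The 836 peaks of 100 nt just inside it had a median score of 11.2 and a highest of 24.5 in Trim28. On the side of overlap, no shared peak of 100 nt or more had fewer than 25 bases in Dox peaks, and 574 had at most 25, with a median score of 11.7.

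Most of these peaks were in genes that still carried a peak elsewhere after Dox. Of the 2832, 2013 (71.1%, 69.4 to 72.7) lay in a gene with at least 1 Dox peak and 819 (28.9%) in a gene with 0. Of the DMSO-only peaks under 100 nt, 74.4% (73.2 to 75.6) lay in a gene with a Dox peak. Where both were on the same transcript, which was the case for 1912 of them, the nearest Dox peak was a median of 325 nt away along the exons (quartiles 150 and 768.5). It was within 100 nt for 343 (17.9%), within 200 nt for 685 (35.8%) and over 1000 nt away for 369 (19.3%). It lay on the 3′ side for 952 and on the 5′ side for 960 of them. In Smc3, the peak with a score of 16.4 adjoined a Dox peak directly, at a gap of 0 nt, whereas in Utp20 the gap was 5043 nt.

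Peaks in genes with 0 Dox peaks were placed differently from the others. They lay within 200 nt of the stop codon in 34.2% of 757 cases (30.9 to 37.7), against 12.1% of 1922 cases (10.7 to 13.7) where the gene had a Dox peak. The share with a Dox peak minus the share without was -22.1 points (-25.8 to -18.5). They were less often spliced (17.6% against 32.1%) and more often held GGAC (60.4% against 52.6%), and their transcripts had a median length of 3646 nt where the others had 4876 nt, while the median scores were 11.2 and 11.4. Both kinds of peak had a median length of 125 nt, with upper quartiles of 175 nt and 150 nt. None of these shares was weighted by peak length. The split is not independent of position, since a DMSO-only peak cannot share bases with a Dox peak that lies at the stop codon. Of 1921 DMSO-only peaks whose gene also carried Dox peaks, 909 were in genes with a Dox peak within 200 nt of the stop codon, and of these 4.40% lay at the stop codon. Of the 1012 in genes whose Dox peaks were all elsewhere, 19.1% did (16.8 to 21.6).

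The difference at the stop codon was also present among genes with a single peak of that length. The same overlap with the Dox list defined both classes there, so this is no independent check. In 2282 genes with 1 DMSO peak of 100 nt or more, that peak was DMSO-only in 609 (26.7%, 24.9 to 28.5). It lay at the stop codon in 40.5% of 566 DMSO-only cases and in 55.4% of 1585 shared cases, a difference of -14.9 points (-19.6 to -10.2) and of -13.1 (-18.7 to -7.50) at equal length class. The middle base was in an internal exon in 36.9% against 23.0%. GGAC differed by -16.3 points, and by -1.46 (-6.82 to 3.90) at equal length class.

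Within the same mRNA, both kinds of peak were found side by side in 1307 genes. In 384 of these there was exactly 1 DMSO-only and 1 shared peak of 100 nt or more, so that neither kind had more peaks to choose from. There the DMSO-only peak had the lower score in 272 genes and the higher in 112, with medians of 11.3 and 12.1, which describes the selection and carries no test. Of the 360 genes with both on the coding transcript, the DMSO-only peak lay 5′ of the shared one in 192 and 3′ in 168. The shared peak alone lay at the stop codon in 132 and the DMSO-only peak alone in 64. In the 95 genes whose pair differed by at most 25 nt in length, the stop codon was occupied by the shared peak alone in 27 and by the DMSO-only peak alone in 16, and GGAC was in the shared peak alone in 22 and in the DMSO-only peak alone in 19.

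The 10 highest scores were spread over genes of the cytoskeleton, ribosome assembly, splicing and chromatin, among others. The peak with the highest score, 26.7, lay in the coding sequence of Actb (beta-actin) at chr5:142904410-142904534, 125 nt long and 150 nt from the nearest of the 5 Dox peaks of the gene. Trim28 and Sf3b3, a subunit of the SF3b complex of the U2 snRNP, followed with 24.5 each. Dync1h1, the heavy chain of cytoplasmic dynein, had 21.7, Utp20 20.8, and Hsf2bp, which acts in meiotic recombination, 20.7. Then came Cbx3 with 20.4, Pcnt (pericentrin, a scaffold of the centrosome) with 19.8, Polr1a (the largest subunit of RNA polymerase I) with 19.4 and Nde1 (a partner of dynein) with 19.3. All of these 10 had their middle base in coding sequence. Of their genes, Cbx3 alone had 0 Dox peaks, while Pcnt had 16 Dox peaks and Dync1h1 had 10.

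The longest DMSO-only peak, of 1125 nt, was in Xist, the noncoding RNA of X inactivation, at chrX:103466816-103467940 on the minus strand, with a score of 11.7 and no GGAC. Xist held another DMSO-only peak, of 100 nt and a score of 12.5, and had 0 Dox peaks. The next longest were in Plekhg1, which encodes a guanine nucleotide exchange factor, with 550 nt, and in Agtrap (an angiotensin receptor-associated protein), Cenpe (a kinetochore kinesin) and Sh3tc1, each with 525 nt. Their scores lay between 11.4 and 12.5, so length and score did not go together at this end. In all, 2779 of the 2832 peaks were assigned to protein-coding genes and 24 to lincRNAs, and 5 lay over no annotated gene. By chromosome, the share of DMSO peaks of 100 nt or more that were DMSO-only ran, leaving out the Y chromosome with 0 of 2 peaks, from 18.8% on chromosome 15 (15.7 to 22.3) to 29.4% on the X chromosome (24.2 to 35.2).

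The 2832 peaks fell in 2040 genes, of 5158 genes with a DMSO peak of 100 nt or more (39.6%). Of these genes, 1504 had 1 such peak, 385 had 2 and 151 had 3 or more. The genes with most of them have long transcripts. Ttn, the giant protein of the sarcomere, had 13, all in coding sequence of its 106824-nt transcript, with scores from 10.2 to 14.3 and GGAC in 10, and neither a shared peak nor a Dox peak. Macf1, a linker of microtubules and actin, had 12 beside 14 shared peaks and 20 Dox peaks. Cenpf, a kinetochore protein, had 10 beside 5 shared peaks, and Dst (dystonin, a cytoskeletal linker) had 10 beside 24. Zdbf2, an imprinted gene, had 8, Tpr (a nuclear pore basket protein) and Bod1l (a protector of replication forks) 7 each, Ash1l (a histone methyltransferase) 6, and Top2a (DNA topoisomerase II alpha) 5. Per 1000 nt of transcript the order changed, with 0.958 in Top2a, 0.942 in Tpr and 0.898 in Cenpf against 0.122 in Ttn.

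**Figure D4:**
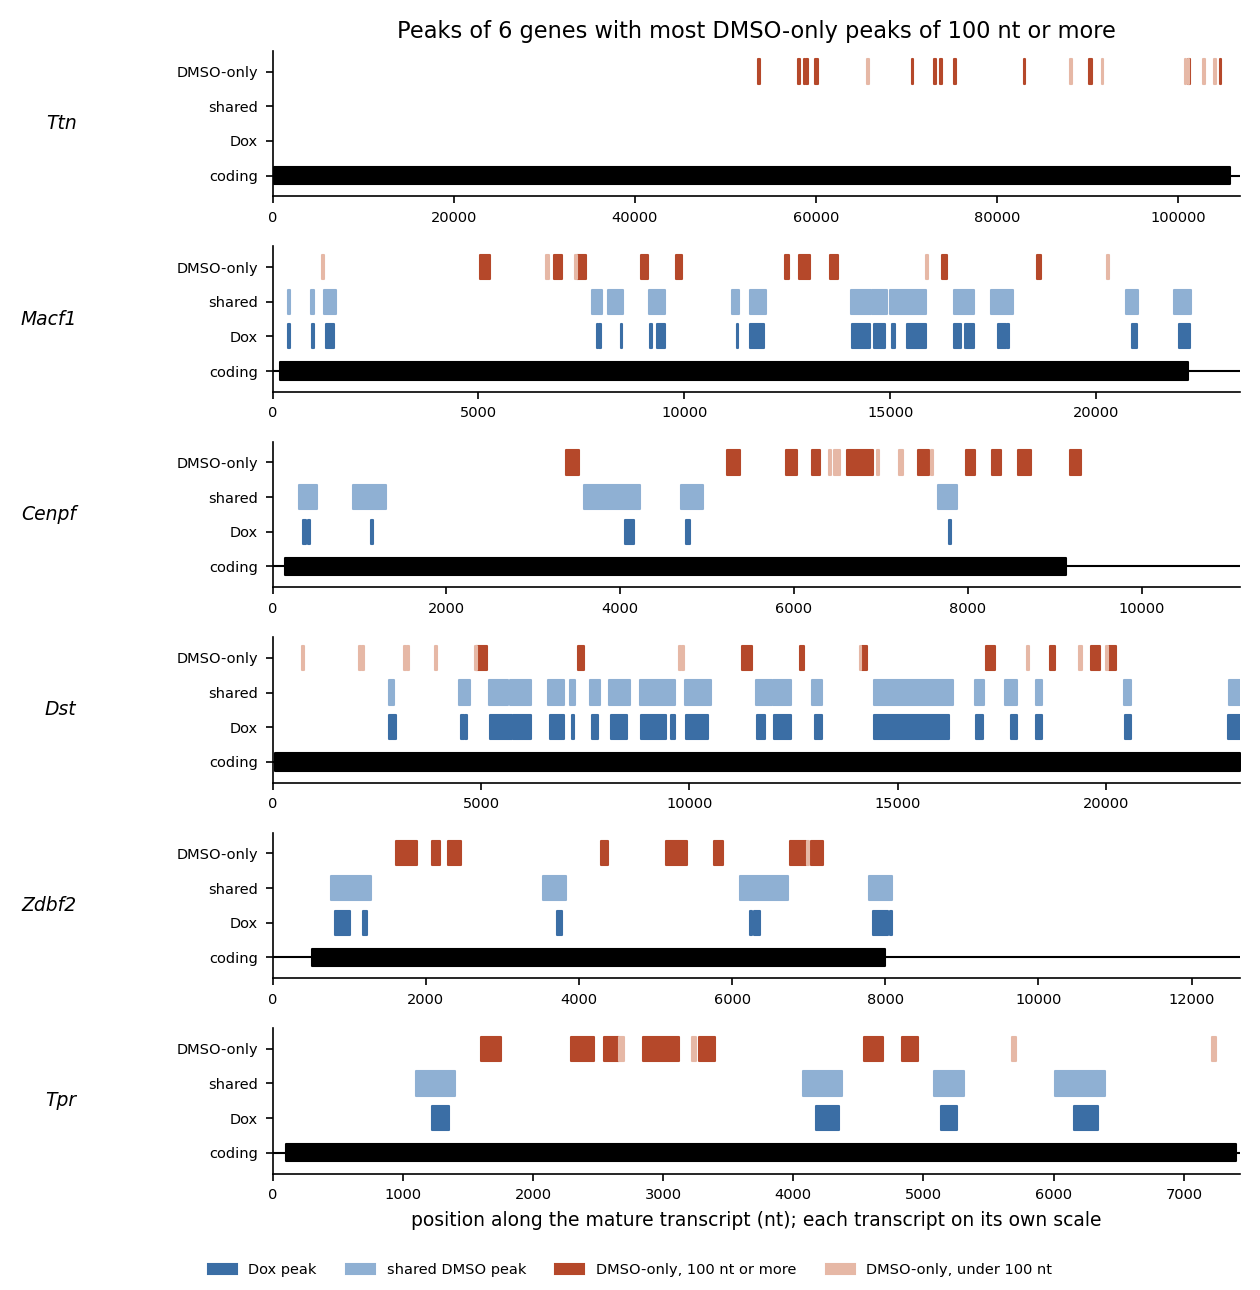
Peaks along the mature transcripts of the 6 genes with most DMSO-only peaks of 100 nt or more, in nt from the transcript start and each on its own scale, with the coding sequence in black. Ttn has 13 such peaks and no Dox peak, while in Macf1 and Dst the DMSO-only peaks lie between shared peaks that also have Dox peaks.

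The share of DMSO peaks with no base in a Dox peak is given here by gene group. Each count is read against 23.3% for all genes and, where given as like length and score, against the share among all DMSO peaks of the same length class and score quintile, and no group was tested. The cohesin, condensin and CTCF genes, which hold chromatids together and fold chromosomes, had 31 of 68 peaks (45.6%, 34.3 to 57.3), against 25.4% at like length and score. The peaks lay in 16 of 19 genes, with the best scores in Smc3 (cohesin, 16.4), Ncapd2 (condensin, 16.04) and Smc4 (condensin, 15.5). Next came Smc6 (12.9), which was in the list though it is neither a cohesin nor a condensin subunit. Zfp genes, which encode zinc finger proteins, had 119 of 346 (34.4%, 29.6 to 39.5) against 23.9%. Of the 76 Zfp genes concerned, 25 had 0 Dox peaks, near the share over all genes with a DMSO-only peak (667 of 2040, 32.7%). Their best-scoring peaks, in Zfp980 (15.7) and Zfp808 (14.7), have a near-identical second locus, so that reads of related genes may be mixed there. Spindle and kinetochore genes had 34 of 104 (32.7%, 24.4 to 42.2) against 20.9%, led by Pcnt. The Cep genes of the centrosome had 19 of 45 (42.2%, 29.0 to 56.7) against 32.6%, among them 5 peaks in Cep295, which had 0 Dox peaks.

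Genes that hold back the 2C-like state had 22 of 76 peaks (28.9%, 19.96 to 39.96), against 17.99% at like length and score. Trim28 had the best score, and Setdb1, the histone methyltransferase that works with it, had 4 peaks with a best score of 14.7. Others were in Hdac1 (13.95, with a near-identical second locus), Dnmt1 (13.5), Smchd1 (12.6), Mga (12.5), Rif1 (12.5), Kdm1a (12), Uhrf1 (11.9), Ehmt2 (11.6) and Hdac2 (10.8). Of these 11 genes, Smchd1 alone had 0 Dox peaks, against 667 of all 2040 genes with a DMSO-only peak (32.7%). Genes of DNA replication and repair had 39 of 137 (28.5%, 21.6 to 36.5) against 22.4% at like length and score, with 18.7 in Top2a and 15.8 in Mcm6, a subunit of the replicative helicase. Histone lysine methyltransferases and demethylases had 50 of 205 (24.4%) against 18.7%, with the best score, 18.1, in Kdm2a.

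Among genes of the m6A pathway itself, 9 of 59 peaks were DMSO-only (15.3%, 8.24 to 26.5), near the 17.7% at like length and score, in 5 of 19 genes. The writer subunits Zc3h13 and Virma had 2 each, with best scores of 12.8 and 10.6, the eraser Fto had 1 (10.9), the RNA-binding protein Igf2bp1 had 1 (13.4), and Fmr1 had 3 (best 12.2) and 0 Dox peaks. None was in Mettl3, Mettl14 or Ythdf2. Genes of deadenylation and mRNA decay had 16 of 69 (23.2%, 14.8 to 34.4), near the 21.7% at like length and score. Cnot10 had the best score of these with 15.6, and Cnot1, the scaffold of CCR4-NOT, had 2, the better of which scored 12.6, lay 369 nt before the stop codon and has a near-identical second locus.

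Pluripotency genes had 6 of 67 (8.96%, 4.17 to 18.2), against 15.0% at like length and score. These peaks were in Tfcp2l1 (12.4), Gbx2 (12.4), Klf5 (11.4), Stat3 (10.9), Dppa4 (10.8, with a near-identical second locus) and Prdm14 (10.5). The 2C genes had 0 of 10 (Wilson upper limit 27.8%), against 39.9% at like length and score, in the 3 genes with a DMSO peak of that length. Genes of the translation apparatus had low shares too. Ribosomal protein genes had 5 of 88 (5.68%, 2.45 to 12.6) against 16.6% at like length and score, and translation factors had 11 of 105 (10.5%, 5.95 to 17.8) against 19.5%. The Rps4x peak, with a score of 17.2, has a near-identical second locus. Both this peak and the Eif5a peak (14.5) adjoined a Dox peak directly, at a gap of 0 nt. Against their shares at like length and score, chromatin remodellers had 33 of 225 (14.7% against 17.3%), Usp proteases 22 of 75 (29.3% against 25.3%) and kinesins 14 of 49 (28.6% against 25.7%). Splicing factors had 28 of 146 (19.2% against 18.7%) and RNA helicases 23 of 101 (22.8% against 20.7%). Solute carriers had 25 of 132 (18.9% against 25.4%), and genes of LIF, FGF, WNT and BMP signalling 21 of 93 (22.6% against 24.1%).

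**Figure D5:**
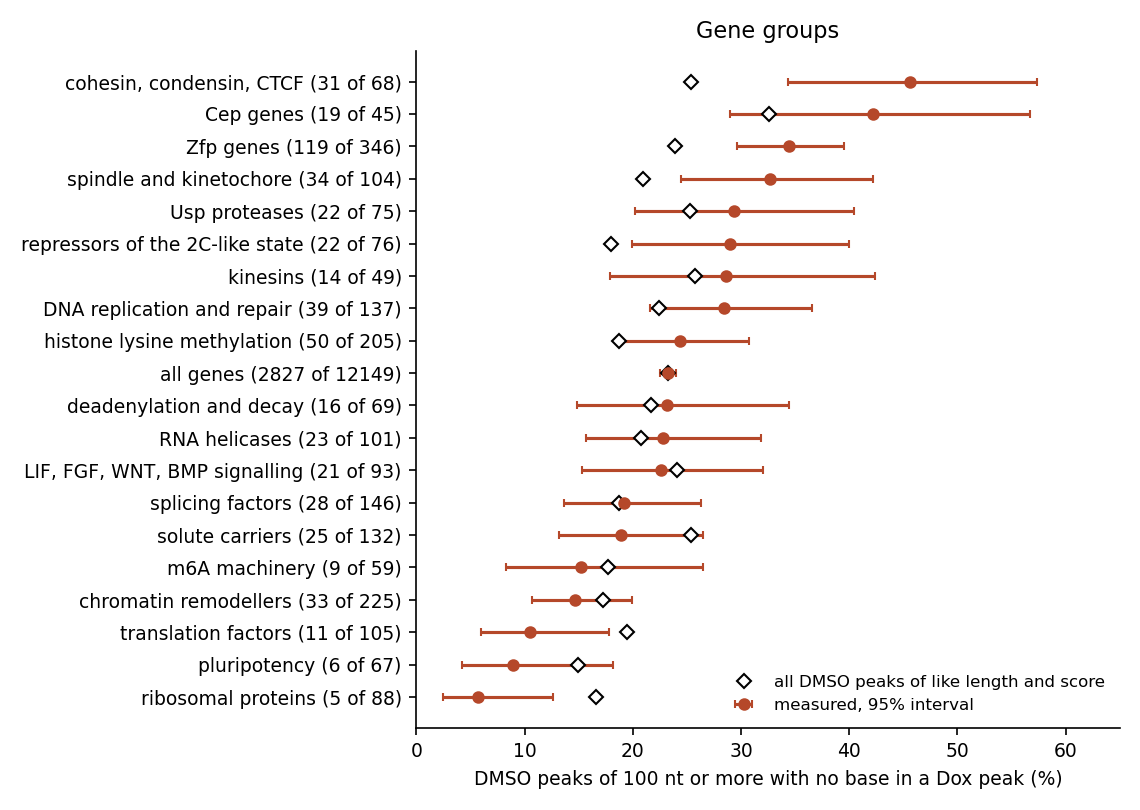
Percent of the DMSO peaks of 100 nt or more of each gene group that had no base in a Dox peak, with Wilson 95% intervals (filled points) and numbers of peaks, beside the percent among all DMSO peaks of the same length class and score quintile (open diamonds). Shares run from 5.68% in ribosomal protein genes to 45.6% in cohesin, condensin and CTCF genes, against 23.3% in all genes.

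The 213 Dox-only peaks of 100 nt or more, chosen by the mirror image of the rule, had a different exon context. Their middle base lay in an internal exon in 28.0% of 186 on coding transcripts (22 to 34.8), against 55.0% of the DMSO-only peaks, and in the 5′ UTR in 8.60% (5.36 to 13.5) against 2.61%. The differences, DMSO-only minus Dox-only, were 27.1 points (19.96 to 33.3) and -5.99 points (-10.9 to -2.68). At the stop codon lay 20.4% of the Dox-only peaks against 18.4%, a difference of -2.06 points whose interval of -8.59 to 3.32 includes 0. GGAC was in 59.2% of them, a difference of -4.28 points (-10.9 to 2.67), at a median length of 150 nt against 125 nt. Of the 213, 194 (91.1%) were in protein-coding genes, against 98.1% of the DMSO-only peaks. None of these differences was weighted by peak length, and near-identical loci were not searched for among the Dox-only peaks.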

How the data were processed

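Per the labels and methods, the authors filtered reads with fastp 0.19.4, aligned them to mm10 with HISAT2 2.2.1 and called peaks of IP over input with exomePeak2. The caller's settings and how replicates were combined were not given in the sources used here. The deposited lists hold, per peak, coordinates, exon blocks and a −log10 p value (the score; at least 10.0, infinite in 4 peaks). Peaks were annotated with GENCODE M21 on GRCm38, taking the transcript with the longest coding sequence per gene, and sequence was read from the RefSeq GRCm38 genome for 2830 of the 2832 peaks. Of 1994 inner block edges, 1993 lay at annotated exon edges, which checks the build. Shares have Wilson and differences Newcombe 95% intervals. Weighted differences used 5 length classes and 5 score quintiles, with normal intervals. Near-identical loci (at least 98% identity over 90% of the peak) were found with blastn 2.17.0. The steps, in Python 3.11.15 with numpy 2.4.6, scipy 1.17.1 and pandas 2.3.3, were tested on simulated data. The peaks and the 20 gene lists were chosen with earlier results of these data known. Genes named were those with the highest scores, greatest lengths or most such peaks, among all peaks, by region and in each list, and peaks printed as sequence were among the best-scoring ones with GGAC, and some items that met these rules are not reported here. Settings added after seeing the data combine length weighting with the other alternatives or use finer length steps and GC content.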

Additional observations from a re-analysis of the deposited data

How the results depend on the processing

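No paired analysis was possible because the replicates come combined in 1 peak list per treatment, and for the same reason no replicate could be left out. Over 131 alternative values of 6 results, 105 were classed as the same as the main value. For the differences this means the same direction and call. The number of DMSO-only peaks and the share with a Dox peak in the gene have no direction, and their values were classed only as same or moved. Of these, 5 of 10 and 8 of 13 were the same, a class that includes 3892 peaks at a minimum of 75 nt. The difference at the stop codon stayed between -15.9 and -5.32 percentage points in 16 planned and between -14.7 and -5.71 in 13 added settings, and the GC difference between -3.20 and -0.96 in planned and -3.02 and -1.22 in added ones, with intervals that exclude 0 in each. The GGAC difference ran from -23.2 to -1.61, the latter with DRACH in its place, and its interval included 0 in 1 setting, at equal length in steps of 25 nt and GC quintile (-1.81). The number of DMSO-only peaks was 1210 at a minimum of 150 nt, 424 at 200 nt, 4504 when under 50% of a peak had to lie in Dox peaks, 1094 at scores of at least the DMSO median and 1794 among the top-scoring DMSO peaks, as many as Dox peaks. The share with a Dox peak in the gene was 81.8% at under 50% overlap, 67.1% with no Dox peak within 100 nt, 76.1% at scores of at least the median, 74.0% among the top-scoring peaks and 67.3% with 1 peak per gene.

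The spliced difference, -5.92 points unweighted, lost its call or its direction in most settings, and the cause was not tested beyond length. It was -1.68 at equal length class, -1.48 in steps of 25 nt, 4.18 at equal length class and score quintile, -2.62 at 150 nt, -4.00 at 200 nt, -1.27 at scores of at least the median and -1.49 among the top-scoring peaks. With length class held as well, it was 2.35 at 150 nt, -0.684 at 200 nt, 0.0756 at under 50% overlap, -1.58 for either strand, -1.68 for whole spans, 2.41 at scores of at least the median, 2.03 among the top-scoring peaks and 0.228 with 1 peak per gene. Those of the last sentence, and all with steps of 25 nt or GC quintile, were chosen after seeing the data. Read depth behind each peak is unknown, so that the precision of a single score cannot be given.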
